A study of Homo sapiens with 4 samples.

Results

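The peaks described here are CTCF peaks on chromosomes 9 and 22 of K562, a human erythroleukaemia cell line that carries the BCR-ABL1 fusion. They came from chromatin immunoprecipitation sequencing (ChIP-seq) of 4 libraries, and each library had its own list of peaks. A peak was a member if its summit lay on chromosome 9 at 2 to 42.3 Mb or 55.4 to 139.2 Mb, or on chromosome 22 at 21 to 49.3 Mb, in GRCh37 coordinates. The rule used position and no measured value. It found 675 and 670 peaks in the lists for aclarubicin replicates 1 and 2, which held 10633 and 10711 peaks in all. It found 367 and 394 peaks in the lists for daunorubicin replicates 1 and 2, of 5886 and 6638 peaks. Merging peaks that shared at least 1 bp across the lists gave 859 member regions of 13962 regions in the whole genome.

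Each library came from K562 cells exposed to 10 µM aclarubicin or 10 µM daunorubicin for 4 hours, and the labels call the 2 libraries of each drug biological replicates. Both drugs are anthracyclines, which intercalate into DNA. All groups share the same cell line, so every value holds for the rearranged K562 genome only. No untreated library was analysed here, so every comparison is of the drugs with each other.

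CTCF is a zinc-finger protein that binds DNA, anchors many chromatin loops and bounds domains of chromatin. The Philadelphia translocation joins BCR on chromosome 22 to ABL1 on chromosome 9, and the product is a constitutively active tyrosine kinase. K562 is known to carry the fused segment in many copies and to have lost part of the short arm of chromosome 9, the arm that holds the cell cycle inhibitor gene CDKN2A. A few stretches were therefore described apart from the rest: the 12 Mb of the short arm of chromosome 9 at 20 to 32 Mb (the 9p stretch), 0.8 Mb of chromosome 9 at 133.5 to 134.3 Mb (the ABL1 side) and 2.7 Mb of chromosome 22 at 21 to 23.7 Mb (the BCR side). In RefSeq's GRCh38 annotation, which was used for gene order only, ABL1 lies between EXOSC2 and QRFP, and BCR lies between RAB36 and IGLL1. The remaining 136.9 Mb of the rule, 111.3 Mb of chromosome 9 and 25.6 Mb of chromosome 22, served as the comparison. Copy number was not measured in these files. The number of copies of a stretch in the cell and the amount of CTCF bound per copy cannot be told apart in fragment counts, and the part of copy number in the values below was not tested.

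The values of a peak are the authors' own fold enrichment over background, and quantities derived from it. Under an assumed formula, fold and p-value together yield how many fragments covered the summit (summit fragments) and how many were expected there (the local background). Relative depth, from the lowest background of each list, was 1 and 1.04 for the aclarubicin libraries and 0.997 and 0.814 for the daunorubicin libraries. The median background over a whole list was 5.58 and 5.98 fragments under aclarubicin and 4.23 and 3.52 under daunorubicin. Exact permutation tests of 2 against 2 libraries are two-sided and cannot give a p below 0.333. Where no p is given, the values are described without a test result.

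The stretches differed widely in how densely peaks were called. On the BCR side there were 43.7 and 42.6 peaks per Mb in the aclarubicin libraries and 24.4 and 22.2 in the daunorubicin libraries. The ABL1 side held 23.8, 25.0, 18.8 and 15.0 peaks per Mb in the same order of libraries. The remaining stretches held 3.92, 3.90, 2.09 and 2.34 peaks per Mb. The 9p stretch held 0.0833 peaks per Mb in 3 libraries and 0 in daunorubicin replicate 1. In each library the order was BCR side, ABL1 side, remaining stretches, 9p stretch, with no overlap between the stretches' values within a drug. Chromosomes differed less than the stretches did, with 3.24, 3.26, 1.8 and 1.98 peaks per Mb on the rest of chromosome 9 and 6.88, 6.68, 3.36 and 3.95 on the rest of chromosome 22. Density also varied within the rest of chromosome 9. In the 4.9 Mb after the ABL1 side, means were 11.6 and 6.53 peaks per Mb under aclarubicin and daunorubicin (n = 2 each). On the ABL1 side the means were 24.4 and 16.9, and in all remaining stretches 3.91 and 2.22. The 1 Mb before the ABL1 side held 7, 5, 5 and 6 peaks in the 4 libraries. The ABL1 side thus stood out less from its flanks than from the pooled remaining stretches.

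**Figure D1:**
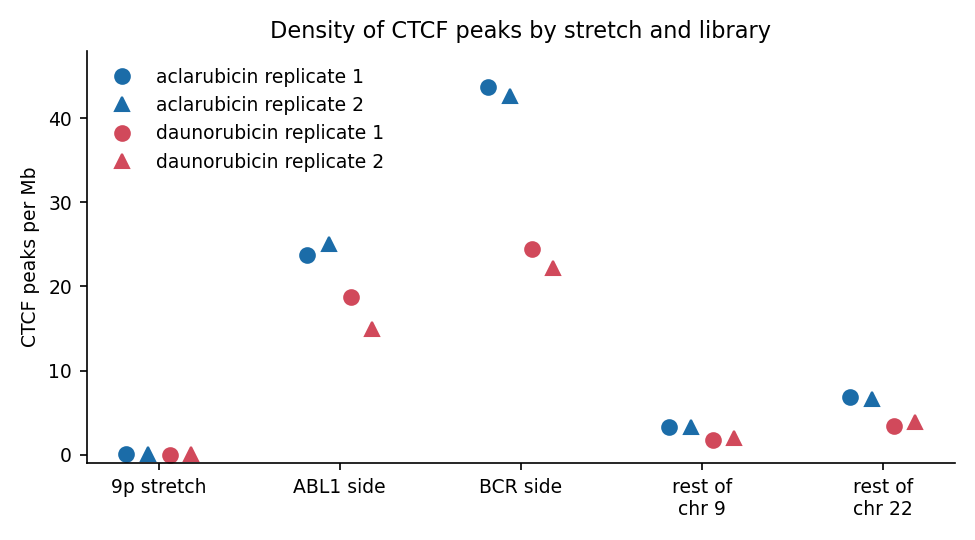
CTCF peaks per Mb (vertical axis) in the 9p stretch, the ABL1 side, the BCR side and the rest of both chromosomes, with 1 point per library, circles for replicate 1 and triangles for replicate 2. The BCR side lies between 22.2 and 43.7 peaks per Mb, and the rest of chromosome 9 between 1.8 and 3.26.

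Peaks of low fold made up much of this density. At a fold of at least 5, the BCR side kept 18.5, 17.0, 13.3 and 15.2 peaks per Mb in aclarubicin replicates 1 and 2 and daunorubicin replicates 1 and 2. The ABL1 side kept 7.5 peaks per Mb in the first 3 of these libraries and 6.25 in the last. The remaining stretches kept 3.37, 3.21, 1.89 and 2.20. The order of these stretches thus held in each library at this stricter threshold.

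The 9p stretch was nearly without CTCF peaks. Its 3 peaks formed 2 regions, which lay 56.5 kb apart. One region, chr9:27276492-27276735, was called in daunorubicin replicate 2 only, with 14 summit fragments over a background of 1.36 and a fold of 6.36. The other, chr9:27333208-27333563, was called in both aclarubicin libraries, with 16 and 19 summit fragments and folds of 6.23 and 6.99. Neither was called in daunorubicin replicate 1. All 3 peaks sat on the lowest background their list held, 1.73, 1.86 and 1.36 fragments in the 3 libraries with a peak. Relative to the median of the remaining stretches, this background was 0.32 and 0.32 under aclarubicin and 0.42 in daunorubicin replicate 2. These ratios are each list's lowest background over that median. They could not have been lower, and they do not measure how low the local background was.

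These 2 regions separated the longest peak-free intervals of both chromosomes, the interval over the excluded centromere of chromosome 9 left aside. The first ran for 7.35 Mb from 19926282 to 27276492 and the next for 5.63 Mb from 27333563 to 32968409. The next in length, 4.89 Mb from 81054715 to 85949171, lay on the long arm of chromosome 9. For comparison, the median interval between neighbouring regions was 69.0 kb on the rest of chromosome 9 and 51.8 kb on the rest of chromosome 22. The region that closed the second interval, chr9:32968409-32968735, was called in all 4 libraries, with 17, 23, 22 and 22 summit fragments. Its background of 1.73, 1.90, 2.05 and 1.85 fragments was still at or near the lowest of each list.

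Low background also extended from the 9p stretch towards the tip of the short arm. Between 2 and 20 Mb, 24 and 22 peaks were called under aclarubicin and 6 and 10 under daunorubicin. The means of 23 ± 1.41 and 8 ± 2.83 (SD, n = 2 each) differed 2.88-fold (exact permutation p = 0.333), beside 1.7-fold for the whole lists. Of the peaks between 2 and 20 Mb, 7, 7, 2 and 3 sat on the lowest background of their list, or 29.2%, 31.8%, 33.3% and 30%. Over the whole lists these shares were 6.61%, 5.10%, 2.94% and 3.40%. The median background of the peaks between 2 and 20 Mb was 0.41, 0.41, 0.77 and 0.55 of the list median. Between 32 and 42.3 Mb, on the side of the centromere, 48, 48, 26 and 31 peaks were called.

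The ABL1 side held 19 and 20 peaks under aclarubicin and 15 and 12 under daunorubicin. The means differed 1.44-fold (exact permutation p = 0.333), beside 1.7-fold for the whole lists. Background on the ABL1 side was high. Its median was 37.7 and 43.9 fragments under aclarubicin and 27.9 and 22.3 under daunorubicin, which was 6.99, 7.60, 7.39 and 6.90 times the median of the remaining stretches. In none of the 4 libraries did a peak of the ABL1 side fall below its list's median background. This ratio did not separate the drugs, since the daunorubicin values lay on both sides of the aclarubicin value of replicate 1 (mean 7.29 ± 0.432 against 7.15 ± 0.348, SD, n = 2 each, exact permutation p = 0.667).

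Fragments over the summit were raised less than background. Their median on the ABL1 side was 2.84, 3.32, 2.21 and 2.73 times that of the remaining stretches. Fold, which sets one against the other, was therefore low, at a median of 3.71 and 3.55 with aclarubicin and of 4.20 and 4.80 with daunorubicin. In the remaining stretches the median folds were 7.67, 7.47, 7.31 and 8.05. A fold under 4 was found in 57.9% and 60% of ABL1-side peaks under aclarubicin and in 40% and 33.3% under daunorubicin, against 3.72%, 6.37%, 1.40% and 1.25% of peaks in the remaining stretches.

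**Figure D2:**
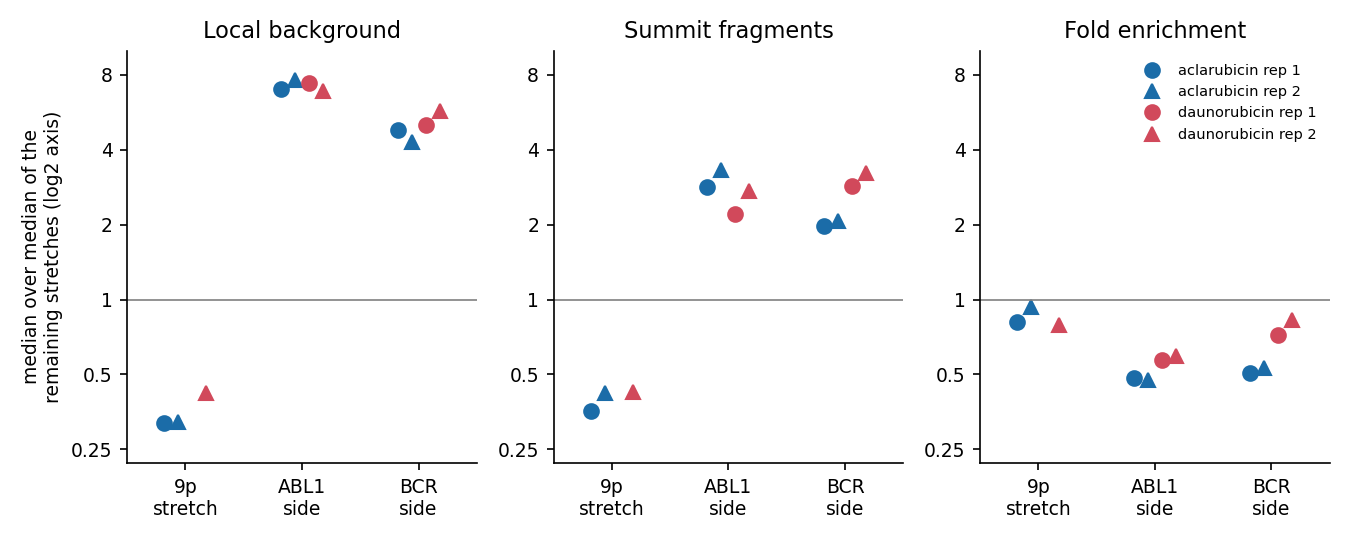
Median local background, summit fragments and fold of each stretch divided by the median of the remaining stretches of the same library (log2 vertical axes), with 1 point per library. Background on the ABL1 side lies between 6.90 and 7.60, summit fragments between 2.21 and 3.32, and fold between 0.48 and 0.60; daunorubicin replicate 1 had no peak in the 9p stretch.

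The background rose and fell within the ABL1 side rather than at its edges. The nearest region before it, chr9:133336604-133337020, had backgrounds of 9.0, 9.70, 5.47 and 4.92 fragments. The first region inside, chr9:133576378-133576902, had 12.0, 13.7, 6.34 and 6.37. At chr9:133607459-133608623 the values were 16.6, 15.9, 10.9 and 12.1, and at chr9:133814430-133814956 they were 58.6, 58.9, 35.4 and 29.1. The last region inside, chr9:134211550-134212110, was back at 10.1, 11.9, 6.05 and 5.36. In the 1 Mb before the ABL1 side the median background was 1.35, 1.62, 1.17 and 1.27 times that of the list, and in the 1 Mb after it 1.27, 1.07, 0.894 and 1.09 times. The raised background was thus an interior block, with a lower level on each side in all 4 libraries.

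**Figure D3:**
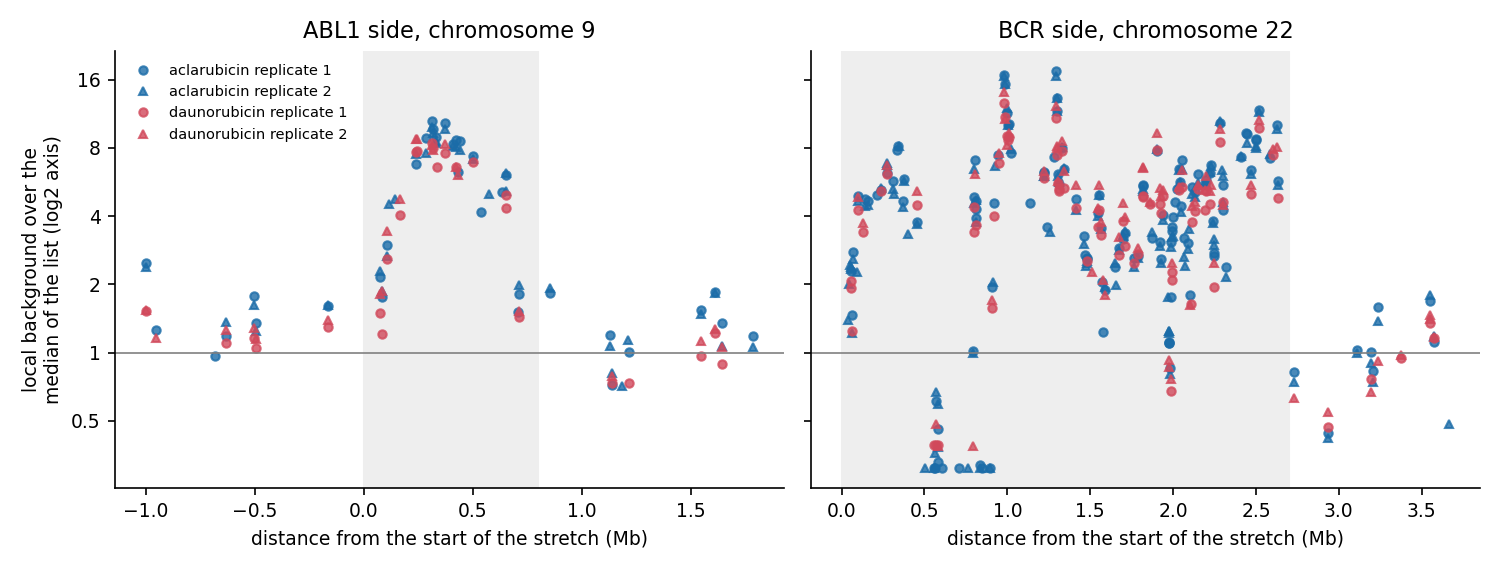
Local background of each peak divided by the median of its list (log2 vertical axis) against the distance from the start of the ABL1 side and of the BCR side (Mb), with the stretch shaded and 1 Mb of flank where the rule allows it. On the BCR side, runs of peaks with low background interrupt a background with values up to 17.5. Their lowest value, 0.31 of the list median, is the lowest that the aclarubicin lists hold.

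In the drug comparison, 9 of the 28 ABL1-side regions were called in all 4 libraries (32.1%, against 29.5% of regions in the whole genome). A further 5 were called in both aclarubicin libraries and in neither daunorubicin library (17.9%, against 23.8% genome-wide). Another 2 were called in both daunorubicin libraries and in neither aclarubicin library (7.14%, against 3.17%). The 95% Wilson intervals of these shares, 17.9% to 50.7%, 7.88% to 35.6% and 1.98% to 22.6%, include the genome-wide values. They treat neighbouring regions as independent and cover counting error only. Without aclarubicin replicate 1 or 2 the aclarubicin-only count was 9 or 8, and without daunorubicin replicate 2 the daunorubicin-only count was 4, since a single library then defines the class.

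At the regions called in all 4 libraries, summit fragments were divided by relative depth and compared with limma over all 4122 such regions of the genome, with Benjamini-Hochberg adjustment over all of them and a threshold of 0.05. Genome-wide, 55.6% of these regions were lower under daunorubicin and 2.67% were higher, with a median log2 difference of -0.70. On the ABL1 side 6 of 9 were lower and 0 were higher, with a median of -0.80. Unadjusted p-values were under 0.05 for the same number, 6. The scaled values of the drugs did not overlap in 7 of the 9, all lower under daunorubicin; genome-wide, 71.6% of shared regions were lower and 7.13% higher without overlap. The split depended on the scale. After centring on the median of all shared regions, 20.7% of regions genome-wide were lower and 22.1% higher, and on the ABL1 side 2 were lower and 2 higher. Without aclarubicin replicate 1 the number lower was 3, and without aclarubicin replicate 2 it was 2.

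The largest decreases on the ABL1 side stood at its first region and near its middle. At chr9:133576378-133576902, 184 and 193 summit fragments under aclarubicin stood against 49 and 63 under daunorubicin, a log2 difference of -1.58 after scaling (limma, adjusted p = 1.3e-06). At chr9:133816432-133816944, the numbers were 337 and 304 against 93 and 101, a difference of -1.54 (limma, adjusted p = 7.6e-07). The drugs did not overlap at either region, and both were called in each alternative fit. With a start 2 kb before the second of them, chr9:133814430-133814956 had 101 and 213 fragments under aclarubicin and 183 and 143 under daunorubicin. There the aclarubicin replicates enclosed the daunorubicin values, and the difference of 0.32 did not pass on the depth scale (limma, adjusted p = 0.27). It was -0.19 without aclarubicin replicate 1 and 0.83 without replicate 2. After centring on the median of all shared regions it was 1.03 and passed as higher under daunorubicin (limma, adjusted p = 3.4e-09).

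The other ABL1-side regions that passed the test had smaller differences. At chr9:134211550-134212110, with folds of 15.0, 14.4, 11.1 and 11, summit fragments were 166 and 185 under aclarubicin and 77 and 69 under daunorubicin (log2 difference -1.09, limma, adjusted p = 1.4e-04). The region with the most fragments, chr9:133873584-133874168, had 503, 483, 238 and 241 (log2 difference -0.86, limma, adjusted p = 0.0019). At chr9:133922022-133922547 there were 405, 370, 211 and 188 (log2 difference -0.78, limma, adjusted p = 0.0037). At chr9:133582670-133583201 there were 128, 124, 52 and 79 (log2 difference -0.80, limma, adjusted p = 0.0083). These regions had non-overlapping drugs. The call at the first was lost without aclarubicin replicate 2 and with centring, and the calls at the others were lost without either aclarubicin replicate and with centring; the last was also lost without daunorubicin replicate 1.

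The ABL1-side regions left to describe did not pass the test on the depth scale. At chr9:133741724-133742202, fragments were 162 and 195 under aclarubicin and 153 and 152 under daunorubicin, and the scaled groups overlapped (log2 difference -0.04, limma, adjusted p = 0.89). After centring the difference there was 0.67 and passed as higher under daunorubicin (limma, adjusted p = 1.6e-04). At chr9:133607459-133608623, fragments were 50, 54, 34 and 38 (log2 difference -0.35, limma, adjusted p = 0.30). After centring it was 0.36 and did not pass (limma, adjusted p = 0.22). Its scaled values were lower under daunorubicin without overlap. The sign of both therefore depends on the scale.

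**Figure D4:**
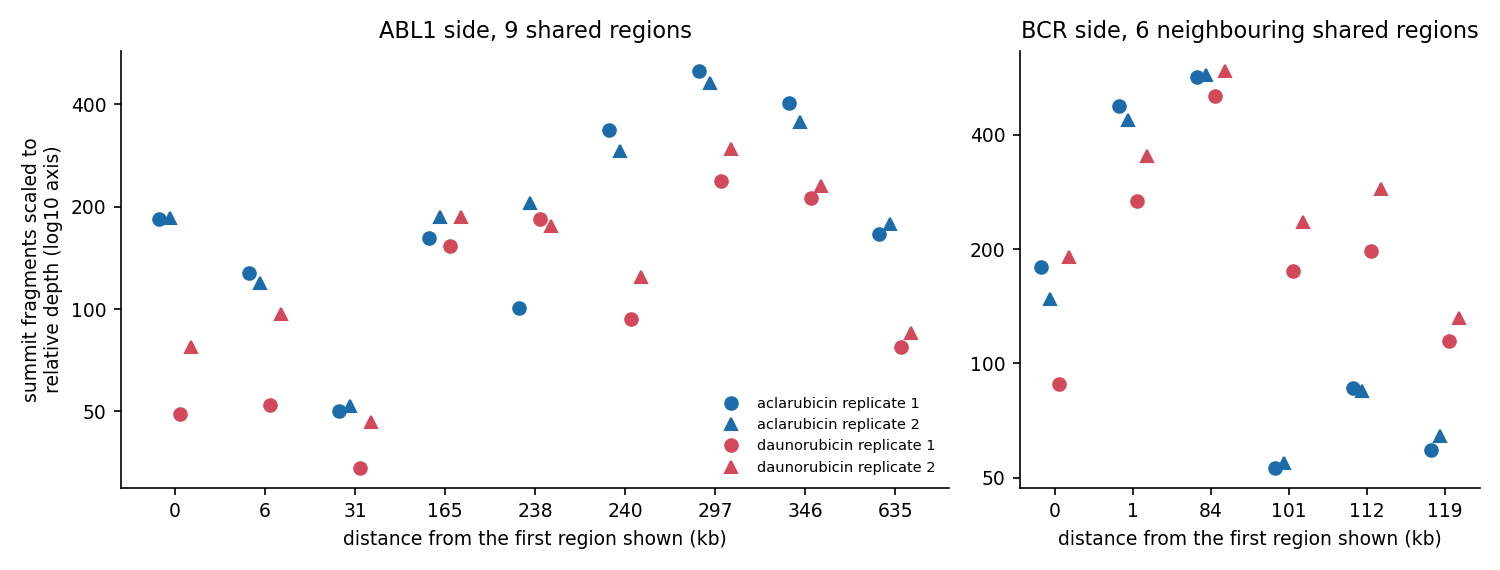
Summit fragments scaled to relative depth (log10 vertical axes) at the 9 ABL1-side regions called in all 4 libraries and at 6 neighbouring such regions of the BCR side, placed in order with their distance from the first region in kb, with 1 point per library. On the ABL1 side aclarubicin lies above daunorubicin in 7 of 9 regions, and in the BCR-side run the last 3 regions are reversed.

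Regions called under a single drug on the ABL1 side stood among this high background and had low folds. The highest aclarubicin-only region, chr9:133785641-133786058, had 232 and 187 summit fragments and folds of 4.64 and 4.03. The next, chr9:133907902-133908401, had 187 and 190 fragments, and the third, chr9:133942142-133942709, had 179 and 169. The daunorubicin-only regions were chr9:133667644-133668046, with 75 and 67 fragments and folds of 4.20 and 3.84, and chr9:133745381-133745728, with 136 and 126 fragments and folds of 4.06 and 4.00. The second lay within 4 kb of the region at 133741724, where the drugs overlapped.

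The BCR side was the richest stretch, with 118 and 115 peaks under aclarubicin and 66 and 60 under daunorubicin. The means were 116.5 ± 2.12 and 63 ± 4.24 (SD, n = 2 each), a 1.85-fold difference (exact permutation p = 0.333), beside 1.76-fold in the remaining stretches and 1.7-fold for the whole lists. As a share of the list, the BCR side took 1.11% and 1.07% with aclarubicin, and 1.12% and 0.904% with daunorubicin. These shares overlapped between the drugs (exact permutation p = 1), and without daunorubicin replicate 2 the sign of the difference in means turned. The ABL1 side took 0.179%, 0.187%, 0.255% and 0.181%, which also overlapped (exact permutation p = 0.667). The remaining stretches took 5.05% and 4.99% against 4.86% and 4.84% (exact permutation p = 0.333). On neither the ABL1 side nor the BCR side did the share of the list separate the drugs, and with 2 libraries each a difference in share remains possible.

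Median background on the BCR side was 25.9, 24.9, 19.0 and 18.5 fragments, or 4.79, 4.31, 5.02 and 5.74 times that of the remaining stretches. Summit fragments were 1.97 and 2.07 times those of the remaining stretches under aclarubicin and 2.85 and 3.23 times under daunorubicin. This ratio was higher in both daunorubicin libraries, by 0.59 on the log2 scale against a pooled SD of 0.0959 (exact permutation p = 0.333), although the sets of peaks behind it differ between the lists. The median fold was 3.89 and 3.96 for aclarubicin, and 5.26 and 6.65 for daunorubicin. Peaks with a fold under 4 made up 51.7% and 51.3% of the aclarubicin peaks and 34.8% and 25.0% of the daunorubicin peaks. Over the whole lists these shares were 8.57% and 9.38% against 3.64% and 2.02%, so this difference between the drugs was not particular to the BCR side. At a fold of at least 5 the drugs' densities on the BCR side, given above, were closer to each other than those of all peaks.

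Peak width behaved differently on the BCR side. The median peak there spanned 423.5 and 437 bp with aclarubicin and 439 and 415 bp with daunorubicin. The means differed by 3.25 bp, less than the 13.8 bp of pooled SD (exact permutation p = 1). In the remaining stretches the medians were 365 and 373.5 bp against 317 and 325 bp, and the means differed by 48.3 bp, with 5.84 bp of pooled SD (exact permutation p = 0.333). On the ABL1 side they were 432, 496.5, 386 and 405 bp. The difference between the stretches in this respect was not tested.

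By number of fragments, the BCR side supplied a large part of the strongest peaks of each list. Among the 100 peaks with the most summit fragments, 16 and 16 lay on the BCR side under aclarubicin and 22 and 23 under daunorubicin. The ABL1 side gave 3, 3, 4 and 3 of them, and the far longer remaining stretches 5, 4, 1 and 1. The peak with the most fragments in both aclarubicin lists was chr22:22292234-22292969, with 1663 and 1544. It had 584 and 583 under daunorubicin. Ranked by fold, 1, 2, 3 and 2 of the top 100 peaks lay on the BCR side and 0 on the ABL1 side in each list. The standing of these stretches thus depended on whether fragments or enrichment over background was ranked.

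Background on the BCR side was not even. It was high from 21038842 to 21457514, over 25 regions with a median of 4.57 times the list median. It was then low for 255 kb, from 21505223 to 21760424, where 11 regions lay between 0.31 and 0.67 of the list median. The next 8 regions had a median of 4.38 and values from 0.386 to 7.06 times the list median. A region counted as low only if each of its peaks lay below its list's median. Background was low again for 61.1 kb, from 21835605 to 21896735, with 4 regions near 0.31. All peaks of this block came from aclarubicin lists and lay at or near the lowest background of those lists. From 21909585 to 22976450, 62 regions had a median of 4.70 times the list median and reached 17.5. A short dip with 2 regions followed at 22977347 to 22982660. The last run, from 22984820 to 23632170, held 45 regions with a median of 5.26. In all, 17 of 157 BCR-side regions (10.8%) had a background below their list's median, so the low blocks were a minor part of the stretch.

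The upper end of the BCR side was sharp. The last region inside, chr22:23631245-23632170, had backgrounds of 31.8 and 32.8 fragments under aclarubicin and 20.4 in daunorubicin replicate 1, and folds of 2.28, 2.39 and 2.34. It was not called in daunorubicin replicate 2. The first region beyond, chr22:23728038-23728476, had backgrounds of 4.60 and 4.43 under aclarubicin and 2.22 in daunorubicin replicate 2, with folds of 9.11, 10.7 and 5.29. In the following 1 Mb the median background was 1.02, 0.902, 0.944 and 0.947 times that of the list. The fall thus lay between 23632170 and 23728038, within the span between 2 neighbouring regions. At the lower end there was no such fall: the nearest region before 21 Mb, chr22:20960532-20960912, was called under daunorubicin only, with backgrounds of 17.0 and 15.3 fragments.

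Of the 157 BCR-side regions, 40 were called in all 4 libraries (25.5%), 36 under aclarubicin only (22.9%) and 5 under daunorubicin only (3.18%). The genome-wide shares were 29.5%, 23.8% and 3.17%, and those of the remaining stretches 31.8%, 26.5% and 2.23%. Regions seen in a single library made up 34.4% of the BCR side (54 regions, 95% Wilson interval 27.4% to 42.1%), 25.1% of the remaining stretches (22% to 28.6%) and 28.7% of all regions. Without aclarubicin replicate 1 or 2 the aclarubicin-only count was 60 or 57. The daunorubicin-only count was 8 without aclarubicin replicate 1 and 10 without either daunorubicin replicate.

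Summit fragments at the 40 shared BCR-side regions had a median log2 difference of -0.49 on the depth scale. Here 18 were lower under daunorubicin (45%, against 55.6% genome-wide) and 4 higher (10%, against 2.67%), with the middle of the distribution between -0.69 and -0.33 (lower and upper quartiles). With centring on the median of all shared regions, 5 were lower (12.5%, against 20.7% genome-wide) and 11 higher (27.5%, against 22.1%), and the median was 0.22. The scaled values of the drugs did not overlap in 34 regions, 29 of them lower and 5 higher under daunorubicin, beside 71.6% and 7.13% of all shared regions. The replicates of daunorubicin differed here: replicate 2 was above replicate 1 in 39 of 40 regions, with a median ratio of 1.38 after scaling, against 1.25 over all shared regions. Without aclarubicin replicate 1 or 2 the number lower was 3 or 4 and the number higher 2 in each case, without daunorubicin replicate 2 the number lower was 30, and with a replicate block it was 10.

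**Figure D5:**
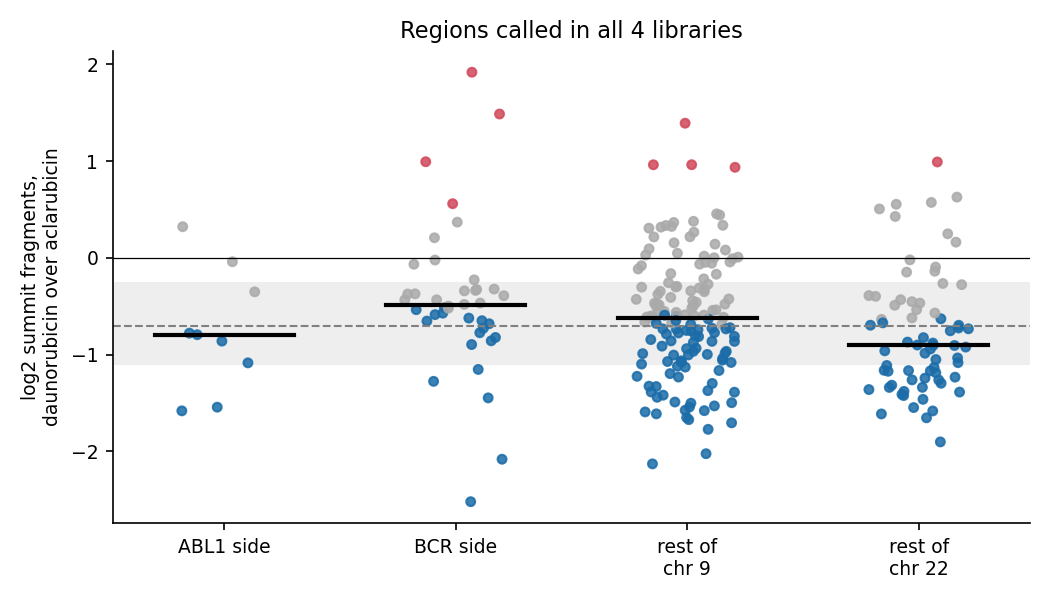
Log2 difference of scaled summit fragments, daunorubicin over aclarubicin (vertical axis), at the regions called in all 4 libraries, with 1 point per region, blue for lower and red for higher in limma, grey for neither, and bars for the median of each stretch. The dashed line and the grey band are the median of -0.70 and the quartiles of all 4122 shared regions; the BCR-side median is -0.49 and that of the rest of chromosome 22 is -0.90.

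Decreases on the BCR side ranged widely at regions with many fragments. The lowest value stood at chr22:22301351-22301939, with 494 and 534 fragments under aclarubicin and 65 and 96 under daunorubicin (log2 difference -2.52, limma, adjusted p = 2.1e-10). At chr22:21984195-21984777, 859 and 873 stood against 194 and 168 (log2 difference -2.08, limma, adjusted p = 4.5e-09). Its neighbour 5 kb before, chr22:21978208-21978897, had 1103 and 1150 against 531 and 636 (log2 difference -0.77, limma, adjusted p = 0.013). Adjacent strong regions thus differed in the size of the decrease; the difference between them was not tested. The call at the neighbour was lost with centring (-0.06), with a replicate block and without either aclarubicin replicate, whereas the other calls held in each alternative fit. These 3 regions were chosen after their values were seen.

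Among the regions with the highest fold, chr22:23284799-23285458 led, with folds of 18.4, 18.6, 17.2 and 18. Its summit fragments were 1081 and 1183 under aclarubicin and 638 and 634 under daunorubicin (log2 difference -0.65, limma, adjusted p = 0.034). At chr22:22292234-22292969, the region with the most fragments, the log2 difference was -1.28 (limma, adjusted p = 1.5e-04). At chr22:22711503-22712030 there were 309, 327, 151 and 190 fragments (log2 difference -0.73, limma, adjusted p = 0.0079). At chr22:22818299-22818824 there were 478, 455, 267 and 287 (log2 difference -0.57, limma, adjusted p = 0.036). All 4 calls were lost without either aclarubicin replicate, and those at the first and last also with a replicate block. The last was lost too without the trend in limma. Centring ended the call at all but 22292234; centred values at the first and last were 0.06 and 0.14.

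The other highest-fold BCR-side regions did not pass the test. At chr22:23053082-23053715, fragments were 620, 578, 355 and 411 (log2 difference -0.47, limma, adjusted p = 0.10). At chr22:22414889-22415444 they were 411, 362, 258 and 261 (log2 difference -0.39, limma, adjusted p = 0.15). Both became positive with centring, at 0.24 and 0.32, and both passed when daunorubicin replicate 2 was left out.

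A run of neighbouring BCR-side regions went the other way, and it was singled out after its values were seen. At chr22:22918697-22919232, 53 and 57 summit fragments under aclarubicin stood against 175 and 192 under daunorubicin, with folds of 3.0 and 3.1 against 8.7 and 9.8 (log2 difference 1.92, limma, adjusted p = 3.2e-08). At chr22:22929301-22929811, 86 and 88 stood against 197 and 235 (log2 difference 1.49, limma, adjusted p = 1.8e-06). At chr22:22936495-22936927, 59 and 67 stood against 114 and 107 (log2 difference 0.99, limma, adjusted p = 7.1e-04). The drugs did not overlap at any of them, and the direction held with centring and without each library. The first and second stayed called in every alternative, and that at 22936495 was lost without either aclarubicin replicate.

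The shared region before the run did not pass the test on the depth scale. At chr22:22901431-22902092, fragments were 568 and 601 under aclarubicin and 504 and 481 under daunorubicin (log2 difference -0.07, limma, adjusted p = 0.83). The difference was 0.05 without daunorubicin replicate 1. After centring it was 0.65 and passed as higher under daunorubicin (limma, adjusted p = 2.2e-05). The remaining higher region of the BCR side, chr22:22697072-22697698, had 133, 140, 164 and 192 fragments (log2 difference 0.56, limma, adjusted p = 0.036). It lies more than 200 kb from the run, and its call was lost without either aclarubicin replicate, without daunorubicin replicate 2, with a replicate block and without the trend.

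Single-drug regions of the BCR side covered both background levels. The aclarubicin-only region with the highest fold percentile, chr22:22987846-22988230, had 162 and 161 fragments over backgrounds of 17.1 and 17.5. The next, chr22:21835605-21835916, lay in a low block, with 23 and 24 fragments over 1.79 and 1.86. The third, chr22:21995727-21996642, had 482 and 484 fragments over 63.7 and 72.0. Their folds were 9.0 and 8.8, 8.6 and 8.7, and 7.5 and 6.6. A similar fold thus stood for fragment numbers that differed widely. Under daunorubicin only, chr22:22862770-22863432 had 104 and 67 fragments with folds of 5.2 and 3.9, and chr22:21948147-21948638 had 94 and 89 fragments. The last of the named daunorubicin-only regions, chr22:21126427-21126693, had 43 and 42.

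In the remaining stretches, 537 and 534 peaks under aclarubicin and 286 and 321 under daunorubicin formed 672 regions. Of these, 214 were called in all 4 libraries, 178 under aclarubicin only and 15 under daunorubicin only. Summit fragments were lower under daunorubicin in 117 (54.7%) and higher in 5 (2.34%) of the 214, beside 55.6% and 2.67% genome-wide. Their median log2 difference was -0.71, close to the genome's -0.70. With centring, 46 were lower (21.5%, against 20.7% genome-wide) and 45 higher (21.0%, against 22.1%), with a median of 0.00. The number lower was 49 without aclarubicin replicate 1 and 60 without replicate 2; the number higher was 2 without either of them, 11 without daunorubicin replicate 1 and 3 without replicate 2. Without daunorubicin replicate 1 or 2 the daunorubicin-only count was 43 or 28.

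The rest of chromosome 9 and the rest of chromosome 22 had medians of -0.63 and -0.90. Of 144 shared regions on chromosome 9, 71 were lower (49.3%) and 4 higher, and of 70 on chromosome 22, 46 were lower (65.7%) and 1 higher, beside 55.6% and 2.67% genome-wide. With centring, 27 were lower (18.8%) and 32 higher (22.2%) on chromosome 9, with a median of 0.09. On chromosome 22, 19 were lower (27.1%) and 13 higher (18.6%), with a median of -0.19. The centred genome-wide shares were 20.7% and 22.1%. The strongest shared region of chromosome 9 by fold was chr9:130879780-130880374, with folds of 23.7, 22.2, 18.5 and 19.9 and 760, 749, 259 and 272 fragments. On chromosome 22 it was chr22:37252295-37252835, with folds of 21.7, 19.7, 16.7 and 15.7 and 258, 227, 91 and 100 fragments. At both, daunorubicin gave fewer fragments in each library. The log2 differences were -1.33 at the first (limma, adjusted p = 1.9e-05) and -1.16 at the second (limma, adjusted p = 5.9e-05); the second was lost without aclarubicin replicate 1.

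The extremes of the remaining stretches were smaller than those of the BCR side in both directions, a comparison of single regions that was not tested. Over all shared regions of the genome the log2 differences ran from -3.01 to 1.97. The BCR-side extremes of -2.52 and 1.92 lay within that range. The extremes of the remaining stretches were as follows. The lowest on chromosome 9, chr9:136271886-136272334, had 172, 170, 41 and 29 fragments (log2 difference -2.13). The lowest on chromosome 22, chr22:41939623-41940227, had 131, 142, 28 and 37 (log2 difference -1.90). The highest on chromosome 9, chr9:102978419-102978870, had 24, 32, 71 and 58 (log2 difference 1.39, limma, adjusted p = 1.0e-04). The highest call on chromosome 22, chr22:23933266-23933617, had 17, 13, 20 and 34 (log2 difference 0.99, limma, adjusted p = 0.0061). The last rests on few fragments and was lost without aclarubicin replicate 2 or without daunorubicin replicate 2, whereas the others passed without each library in turn.

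The single-drug regions named here are among the 3 highest by fold of their class on each chromosome, out of 178 aclarubicin-only and 15 daunorubicin-only regions. On chromosome 9, chr9:134630948-134631387 was called under aclarubicin only, with folds of 15.2 and 12.3 and 116 and 90 fragments. It lies less than 0.5 Mb beyond the ABL1 side, over backgrounds of 6.68 and 6.41. On chromosome 9 under daunorubicin only, the highest by fold was chr9:35882245-35882609, at a mean percentile of 98.1. The next, chr9:81054411-81054715, had 21 and 31 fragments and folds of 8.3 and 13.2. It stands at the start of the 4.89 Mb interval without peaks. On chromosome 22, chr22:46763416-46764006 was aclarubicin-only with folds of 12.4 and 9.3, and chr22:24372285-24372675 was daunorubicin-only with folds of 7.4 and 9.2. The lowest ranked of the named regions, the daunorubicin-only chr22:39925283-39925582, had folds of 5.72 and 5.47.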

How the data were processed

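The data were 4 CTCF ChIP-seq peak lists, 1 per library and called per library, with drug and replicate number from the labels. Per the submitters' processing notes, Bowtie2, Picard and bedtools were used with GRCh37 (hg19); their versions, the peak caller, its threshold and any control are not given in the sources used here. The deposited columns hold a fold enrichment ratio, a −log10 p and a −log10 q, a summit offset, and a deposited score that is the −log10 q times 10, cut to a whole number, in nearly all peaks. These are the authors' values for each peak.

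Fold was read as (k + 1)/(λ + 1) and p as the Poisson chance that more than k fragments arise where λ are expected. Solving both gave k within 0.02 of a whole number in 100% of peaks of each list. The formula is an assumption. Relative depth was each list's minimum λ over its minimum peak width; the files hold no read totals, so true depth is unknown. Intervals were merged over lists at 1 bp of overlap. Values per library were compared by exact permutation, and log2 of k over relative depth by limma 3.58.1 (R 4.3.3, lmFit and eBayes with trend), since recovered fragments are derived values. Other steps ran in Python 3.11.15 (pandas 2.3.3, scipy 1.17.1, numpy 2.4.6), with matplotlib 3.10.9 for figures. Fragment recovery was tested on values built with the same formula, so that test does not bear on whether the formula holds. The limma step was tested on simulated data with few changed regions, equally many in each direction. The real calls were many and mostly lower under daunorubicin. Merging was checked against bedtools.

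Members, stretches and lists were chosen with earlier results of these data known. Named regions came from lists set by rule. These held all regions of a stretch with 12 or fewer. Otherwise they held the 6 shared regions and the 3 regions of each single-drug class ranked highest by fold (percentile within each list, averaged). For the remaining stretches they held 3 of each per chromosome, with the 3 lowest and 3 highest limma differences. The 3 longest gaps were also named. Only some of the listed regions of the remaining stretches are described above. The other 3 shared ABL1-side regions and the BCR-side extremes, run, neighbours and remaining increase were added after their values were seen. Replicate numbers are shared by the drugs, but the labels name no shared batch, so the main comparisons are unpaired, and p-values measure the spread between these libraries. Coordinates are 1-based. No sequence, motif, exon or promoter was placed, since no GRCh37 annotation was used here.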

Additional observations from a re-analysis of the deposited data

How the results depend on the processing

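Limits come first. Each drug had 2 libraries, the fragment formula and depth scale are assumed, lists differ in length, and 9p values rest on 3 peaks. With lists cut to 5886 peaks each, regions on both chromosomes were 82 aclarubicin-only (220 in full lists) and 53 daunorubicin-only (22), those of the BCR side 9 aclarubicin-only, and those of the remaining stretches 69 and 44; the 9p stretch had 0 aclarubicin-only, as it did at a −log10 q of at least 10. The BCR side's share of the list, aclarubicin minus daunorubicin, was 0.079 percentage points, and it turned to -0.102 with equal lists and -0.126 at a fold of at least 5; the 9p share difference was 0 with equal lists. At that fold the ABL1 side had 5 regions in all 4 libraries, 1 aclarubicin-only and 0 daunorubicin-only, and the BCR side 7 aclarubicin-only; at a −log10 q of at least 10 the BCR side had 2 daunorubicin-only. The cause was not tested.

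On the log2 scale over the remaining stretches, mean over libraries, 9p background of -1.51 became -1.52 at a −log10 q of at least 5 and -1.47 as a mean of log2 values. ABL1-side background of 2.85 became 2.67 over shared regions and 2.46 as a mean of log2 values, and its summit fragments of 1.46 became 1.68 at that q. BCR-side background of 2.30 became 2.06 as a mean of log2 values, and its summit fragments of 1.31 became 1.46 at that q and 1.84 over shared regions. The 9p stretch had no region in all 4 libraries, so that setting gives no value there.

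Centring gave 53 lower and 58 higher shared regions on both chromosomes (141 and 9 on the depth scale), 2 and 2 on the ABL1 side, 5 and 11 on the BCR side, 46 and 45 in the remaining stretches and 854 and 909 genome-wide, with medians of 0.0501, -0.0820, 0.222, 0.00299 and 0.0120; it moves the median of all regions from -0.70 by construction. Centred log2 differences turned positive at chr22:23284799-23285458 (0.0627), chr22:23053082-23053715 (0.24), chr22:22414889-22415444 (0.32), chr22:22818299-22818824 (0.14), chr9:115873681-115874736 (0.15), chr22:31030310-31030856 (0.0827), chr9:133607459-133608623 (0.36), chr22:22901431-22902092 (0.65) and chr9:133741724-133742202 (0.67). Without each library in turn, the last ranged from -0.18 to 0.10 (0.06 without aclarubicin replicate 2, 0.10 without daunorubicin replicate 1) and chr9:133814430-133814956 from -0.19 (without aclarubicin replicate 1) to 0.83; chr22:22901431-22902092 ranged from -0.18 to 0.0459 (without daunorubicin replicate 1).

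Leaving out each library in turn, the share difference ranged from -0.00569 to 0.00937 percentage points in the 9p stretch, -0.0721 to 0.00193 on the ABL1 side and -0.0296 to 0.188 on the BCR side. Daunorubicin-only regions ranged from 29 to 56 on both chromosomes, 0 to 1 in the 9p stretch, 2 to 4 on the ABL1 side, 5 to 10 on the BCR side and 21 to 43 in the remaining stretches, and aclarubicin-only regions from 5 to 9 on the ABL1 side and 41 to 60 on the BCR side. The log2 9p background ranged from -1.64 to -1.44 and BCR-side summit fragments from 1.18 to 1.42. The 9p peaks sat on the lowest background of their lists, so the range of that value does not measure how stable a local background was. Lower shared regions ranged from 55 to 190 on both chromosomes, 2 to 7 on the ABL1 side, 3 to 30 on the BCR side, 49 to 153 in the remaining stretches and 992 to 2831 genome-wide, and higher ones from 4 to 17, 2 to 6 (BCR side), 2 to 11 (remaining) and 31 to 217 (genome-wide). Their medians ranged from -0.85 to -0.52 on both chromosomes, -1.02 to -0.71 on the ABL1 side, -0.78 to -0.32 on the BCR side, -0.89 to -0.59 in the remaining stretches and -0.87 to -0.53 genome-wide. Fewer libraries leave fewer degrees of freedom, and a lone library of a drug is assumed to vary like the others.

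Deviations of same-numbered libraries correlated at -0.08 over 4122 shared regions and -0.15 over the 263 members. These values show no positive link between same-numbered libraries across regions. They cannot exclude a shared batch, since a shift common to all regions leaves no trace in them. A replicate block lowered the count of lower BCR-side regions from 18 to 10, and gave 131 lower and 8 higher on both chromosomes. The crossed pairing, chosen after seeing the data, gave 141 and 9 there, and 19 lower on the BCR side.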
